A study of Mus musculus with 3 samples.

Results

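The genes described here encode the platelet-derived growth factor (PDGF) receptors, Pdgfra and Pdgfrb, and the PDGF ligand chains, Pdgfa, Pdgfb, Pdgfc and Pdgfd. They were chosen by name and make up 6 of the 18865 genes measured, with 118 of the 318760 probesets whose platform annotation names exactly 1 gene. None of the probesets annotated with several symbols named a member (0 of 6684). The RNA came from GFP-positive bone marrow cells of C57BL/6 mice in which GFP is driven by the nestin promoter. The cells were freshly isolated, sorted by flow cytometry, and their total RNA was amplified before it was hybridised to 3 arrays. The 3 arrays form 1 group, no control or comparison group was analysed here, and the labels give neither the age of the mice nor whether the samples came from separate animals or sorts. The p-values therefore rest on the scatter of these 3 samples alone, part or all of which may be technical. The reporter marks cells by promoter activity, so the sorted population can hold several cell types.

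PDGFs are secreted dimers of ligand chains that bring a pair of receptor tyrosine kinases together on the surface of the responding cell. The PDGF-A and PDGF-C chains act mainly through the alpha receptor, the PDGF-D chain mainly through the beta receptor, and the PDGF-B chain through both. The receptors are typical of mesenchymal cells such as fibroblasts, pericytes and marrow stromal cells, whereas PDGF-B from endothelial cells is known for recruiting pericytes to vessels and is also stored in platelets.

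Promoter windows are shown for members on both sides of the detection threshold used below, because they are a property of the genes that the choice of members did not use. RefSeq windows (GRCm38.p6) of 300 bases, with 250 before and 50 after an annotated start, were used for 4 of the 6 genes. Each is written 5′ to 3′ on the gene's own strand, and capitals mark every match to a GC box (GGGCGG) or a TATA box (TATAAA) on either strand, which did not overlap each other. The Pdgfra window lies at chr5:75152001-75152300 on the plus strand, the upstream of 2 Pdgfa windows at chr5:138994895-138995194 on the minus strand, the Pdgfc window at chr3:81036166-81036465 on the plus strand and the Pdgfd window at chr9:6168236-6168535 on the plus strand.
Pdgfra: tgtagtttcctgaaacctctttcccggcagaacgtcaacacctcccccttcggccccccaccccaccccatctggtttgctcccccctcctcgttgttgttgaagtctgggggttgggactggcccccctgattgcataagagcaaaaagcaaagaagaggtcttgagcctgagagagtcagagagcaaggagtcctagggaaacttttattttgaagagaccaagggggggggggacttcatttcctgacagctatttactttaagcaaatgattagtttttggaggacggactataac
Pdgfa: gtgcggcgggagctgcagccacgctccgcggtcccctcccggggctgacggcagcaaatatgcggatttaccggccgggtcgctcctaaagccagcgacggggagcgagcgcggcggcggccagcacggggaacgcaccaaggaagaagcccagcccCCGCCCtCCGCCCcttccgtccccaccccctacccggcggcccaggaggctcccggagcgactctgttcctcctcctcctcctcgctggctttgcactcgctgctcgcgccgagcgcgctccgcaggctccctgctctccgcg
Pdgfc: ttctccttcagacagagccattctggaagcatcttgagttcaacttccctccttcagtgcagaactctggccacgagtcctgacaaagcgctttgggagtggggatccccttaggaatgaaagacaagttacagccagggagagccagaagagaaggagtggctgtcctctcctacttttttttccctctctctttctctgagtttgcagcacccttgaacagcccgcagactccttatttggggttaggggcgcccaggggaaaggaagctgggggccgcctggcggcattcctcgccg
Pdgfd: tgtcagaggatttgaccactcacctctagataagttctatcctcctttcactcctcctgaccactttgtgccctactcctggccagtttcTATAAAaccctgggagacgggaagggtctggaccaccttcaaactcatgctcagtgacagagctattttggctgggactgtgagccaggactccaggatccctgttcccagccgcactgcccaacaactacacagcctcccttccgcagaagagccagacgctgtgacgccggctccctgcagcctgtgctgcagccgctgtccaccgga
The Pdgfa window had 2 GC boxes, starting at positions 158 and 165 counted from 1 at its 5′ end, and a G+C content of 73.3%, against a median of 52.7% over all 32851 windows. The other Pdgfa window, at chr5:138994232-138994531, had 1 GC box at position 191 and 67% G+C. No GC box was in the windows of Pdgfra (51% G+C), Pdgfc (55% G+C) and Pdgfd (56.7% G+C), and 35.7% of all windows hold one. The Pdgfd window had 1 TATA box, at position 91, which 13.6% of all windows hold. An Egr1 core (GCGTGGGCG, in 0.612% of all windows) was searched on both strands and matched none of the 5 member windows. A match describes the letters only and shows no binding.

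Both receptor genes and the ligand genes Pdgfa and Pdgfd gave a signal above background in the sorted cells, while Pdgfb and Pdgfc did not pass the test. The deposited data give each probeset as a log2 value from robust multi-array average (RMA) processing, and each gene was summarised per array by the median over its probesets. Background was measured on the same array as the 95th percentile of 355 olfactory, vomeronasal and bitter taste receptor genes, which marrow cells should mostly lack. This threshold was 5.40, 5.66 and 5.64 on arrays 1, 2 and 3. A gene was called above background where limma's one-sided test of its margin over the threshold had a Benjamini-Hochberg adjusted p below 0.05 over all 18865 genes. By that rule 4 of the 6 members were called, and 50.6% of all genes were. The members' median margin was 2.23 on the log2 scale, and that of all genes was 0.50. Because probe affinity differs, no ranking of one gene's level against another's was made.

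**Figure D1:**
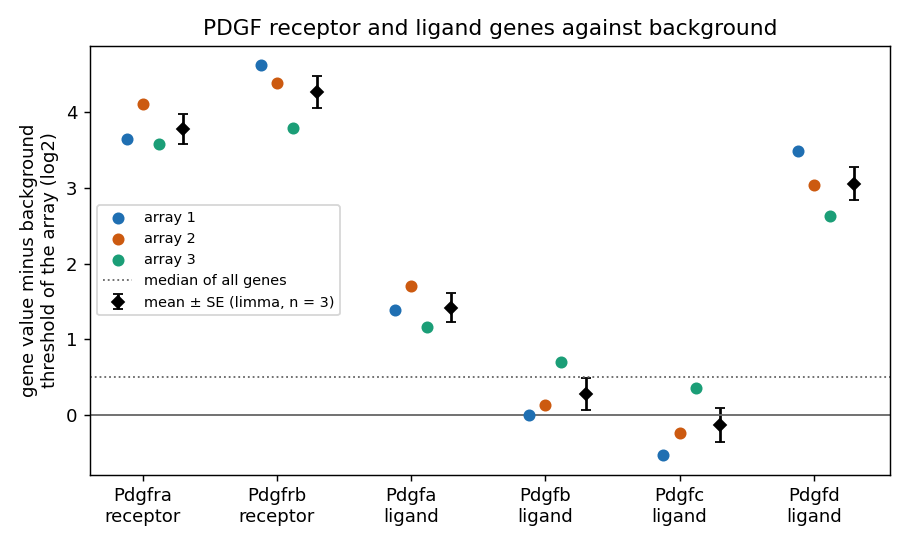
Gene value minus the background threshold of the same array (log2, vertical axis) for the 6 PDGF genes, with 1 coloured point per array and a black diamond for the mean ± SE of limma's fit (n = 3). All 3 arrays lie above the threshold (solid line at 0) for Pdgfra, Pdgfrb, Pdgfa and Pdgfd, while the mean margin was 0.28 for Pdgfb and -0.13 for Pdgfc, and the dotted line marks the median of all genes at 0.50.

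Pdgfra, the gene of the alpha receptor, had log2 values of 9.04, 9.77 and 9.21 on arrays 1, 2 and 3. All 3 values lay at least 3.57 above the threshold of their array, and array 2 was the highest. The mean was 9.34 ± 0.38 (SD, n = 3) and the mean margin 3.77 ± 0.20 (SE), with an adjusted p of 8.67e-07 in limma's test. Pdgfrb, the gene of the beta receptor, had log2 values of 10.02, 10.04 and 9.44 on arrays 1, 2 and 3. Arrays 1 and 2 were close to each other and array 3 was lower, with all 3 well above the threshold. The mean was 9.83 ± 0.34 (SD, n = 3) and the mean margin 4.27 ± 0.21 (SE), with an adjusted p of 7.58e-07 in limma's test.

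Against the stricter background of 30 genes of hepatocytes, photoreceptors and spermatids, whose 95th percentile was 7.25, 7.08 and 6.93 on arrays 1, 2 and 3, both receptor genes were also called. The margins were 2.25 for Pdgfra (adjusted p = 1.82e-04) and 2.74 for Pdgfrb (adjusted p = 3.34e-05) in limma's test, where 15.6% of all genes were called. Pdgfd passed this background too, with a margin of 1.53.

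The receptor signal was spread over most of the probesets of each gene. Single probesets were tested in the same way against the 95th percentile of the 2111 probesets of the background genes, which was 7.21, 7.38 and 7.16 on arrays 1, 2 and 3. For Pdgfra 28 of 33 probesets (84.8%) were called, and for Pdgfrb 23 of 29 (79.3%), where 18.2% of all 318760 probesets were called. The mean over the 3 arrays of a Pdgfra probeset reached 11.70 at the highest, with a median of 9.27, and that of a Pdgfrb probeset reached 12.19, with a median of 9.86. A few probesets of each receptor gene stayed low. The lowest Pdgfra probeset had 2.29, 4.59 and 6.82 on arrays 1, 2 and 3, and the lowest Pdgfrb probeset had 6.33, 6.66 and 6.11. Over all 3 arrays 4 Pdgfra probesets and 2 Pdgfrb probesets never exceeded the threshold for probesets. Probesets of 1 gene share their RNA and are not replicates, and their positions in the transcripts were not used here.

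**Figure D2:**
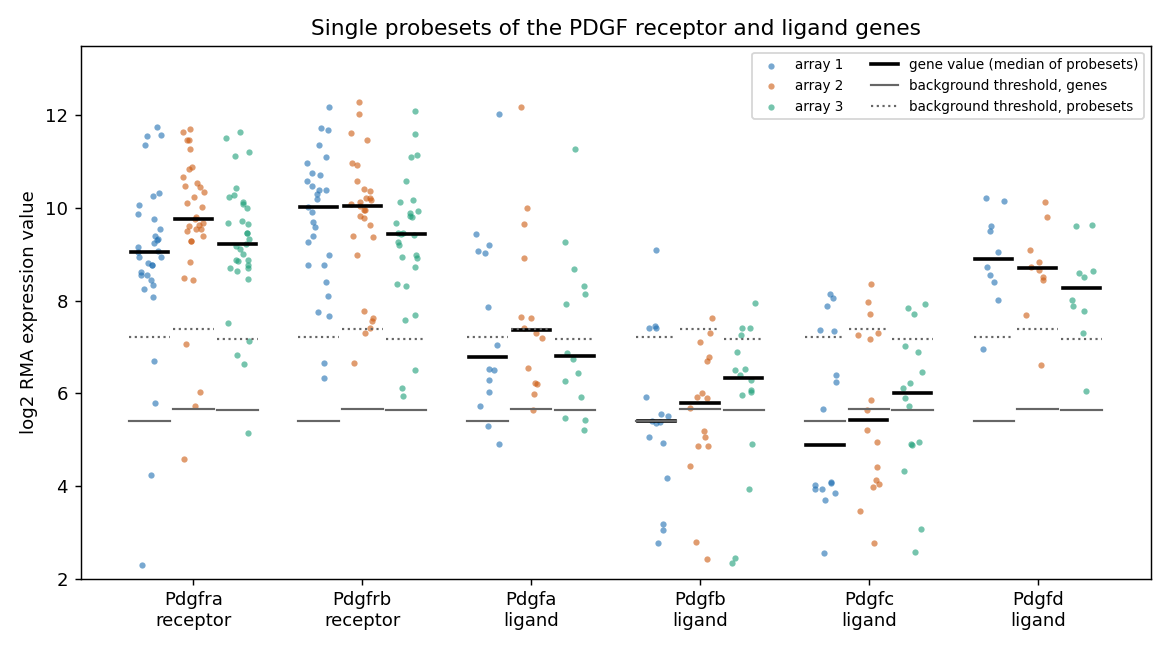
Log2 RMA value (vertical axis) of every single probeset of the 6 PDGF genes, coloured by array, with the gene's median as a black bar and the background thresholds for genes (grey line) and for probesets (dotted line). Most points of Pdgfra, Pdgfrb and Pdgfd lie above the dotted line, those of Pdgfa are spread from 4.92 to 12.19, and most points of Pdgfb and Pdgfc lie below it.

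Among the ligand genes, Pdgfd, which encodes a ligand chain of the beta receptor, was well above background. It had log2 values of 8.89, 8.70 and 8.27 on arrays 1, 2 and 3, all above the threshold by at least 2.63. The mean was 8.62 ± 0.32 (SD, n = 3) and the mean margin 3.05 ± 0.22 (SE), with an adjusted p of 3.80e-06 in limma's test. Of its 10 probesets 7 were called and 9 lay above the threshold for probesets on all 3 arrays. One of the 3 that were not called had 10.16, 7.70 and 9.63 on arrays 1, 2 and 3 (adjusted p = 0.0676, limma). The least bright Pdgfd probeset had 6.95, 6.61 and 6.05 on these arrays.

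Pdgfa, which encodes a ligand chain of the alpha receptor, had log2 values of 6.79, 7.36 and 6.80 on arrays 1, 2 and 3. Arrays 1 and 3 were alike and array 2 was higher, and all 3 lay above the threshold by 1.16 to 1.70. The mean was 6.98 ± 0.33 (SD, n = 3) and the mean margin 1.42 ± 0.19 (SE), with an adjusted p of 1.64e-04 in limma's test. This call was the least secure of the 4. It was lost with the 99th percentile of the background genes as threshold (margin 0.19, adjusted p = 0.597, limma, where 20.1% of all genes were called), and against genes of other tissues the margin was -0.11 (adjusted p = 1, limma).

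The probesets of Pdgfa were widely spread, which was not particular to this gene. Of the 14, 4 were called (28.6%, where 18.2% of all probesets were), 5 lay above the threshold for probesets on all 3 arrays (35.7%, against 24.8% of all), and 6 never exceeded it. The brightest probeset had 12.03, 12.19 and 11.28 on arrays 1, 2 and 3, while the dimmest by its mean had 5.73, 5.64 and 5.43. The other called Pdgfa probesets had means of 9.44, 8.94 and 9.14 over the 3 arrays. The spread between probesets of the gene was 1.81 (SD of 14 means), and the median of this spread over all genes was 1.62. It was 1.61 for Pdgfra, 1.41 for Pdgfrb, 1.55 for Pdgfb, 1.66 for Pdgfc and 0.91 for Pdgfd.

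Pdgfb, the gene of the chain that binds both receptors, had log2 values of 5.40, 5.79 and 6.34 on arrays 1, 2 and 3. Array 1 lay just under the threshold (margin -0.0017) and array 3 was 0.70 above it. The mean was 5.84 ± 0.47 (SD, n = 3) and the mean margin 0.28 ± 0.21 (SE), which did not pass limma's test (adjusted p = 0.192). With the 90th percentile of the background genes as threshold, Pdgfb was called (margin 0.71, adjusted p = 0.0120, limma, where 63.5% of all genes were called). Limma called 0 of its 16 probesets (0 also before adjustment, at p below 0.05), and 1 lay above the threshold for probesets on all 3 arrays. That probeset had 7.40, 7.62 and 7.40 on arrays 1, 2 and 3.

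The Pdgfb probeset with the highest mean had 9.09, 6.69 and 7.95 on arrays 1, 2 and 3. It was not called (adjusted p = 0.526, limma). It was lowest on array 2, where the endothelial genes described below were also lowest, whereas the gene's median was not lowest there. Array 2 was the lowest for 4 of the 16 Pdgfb probesets, against 107230 of all 318760 probesets with 1 symbol. The part of endothelial RNA in the Pdgfb signal was not tested. A missing call does not show that the Pdgfb transcript was absent.

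Pdgfc, which encodes the other alpha receptor ligand measured here, had log2 values of 4.87, 5.42 and 6.00 on arrays 1, 2 and 3. Arrays 1 and 2 lay below the threshold and array 3 above it by 0.36. The mean was 5.43 ± 0.57 (SD, n = 3) and the mean margin -0.13 ± 0.22 (SE), which did not pass limma's test (adjusted p = 1).

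Single Pdgfc probesets behaved differently from the gene's median. A pair of its 16 probesets was called (12.5%, below the 18.2% of all probesets). One had 8.06, 7.97 and 7.93 on arrays 1, 2 and 3 (adjusted p = 0.0415, limma) and the other 8.15, 8.36 and 7.85 (adjusted p = 0.0269, limma). Another probeset had 7.88, 7.71 and 7.71, above the threshold on all 3 arrays without passing the test (adjusted p = 0.121, limma). The called probesets had a median SD of 0.16 over the arrays, and the 14 others one of 0.52. A small SD helps a probeset to pass the test, so this contrast is partly built in. Over all probesets with 1 symbol the medians were 0.31 for called and 0.45 for other probesets. In contrast, 11 of the 16 never exceeded the threshold for probesets, and the dimmest had 4.06, 2.76 and 3.07. With 1 array left out in turn, 0 of the 16 were called, so the call of this pair needed all 3 arrays.

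The 6 genes did not deviate together between the arrays. Deviations were taken from a gene's own 3-array mean and centred so that the median over all genes was 0 on each array. Pdgfra was highest on array 2 (deviations -0.33, 0.42 and -0.09 on arrays 1, 2 and 3), and so was Pdgfa (-0.22, 0.37 and -0.15). Pdgfrb (0.16, 0.20 and -0.36) and Pdgfd (0.25, 0.07 and -0.32) were both lowest on array 3. Pdgfb (-0.47, -0.06 and 0.53) and Pdgfc (-0.59, -0.02 and 0.61) were both lowest on array 1 and highest on array 3 by the median of their probesets. By the median over the 2 called Pdgfc probesets alone, array 2 was highest and array 3 lowest. These probesets did not share that order. The probeset with 8.15, 8.36 and 7.85 was highest on array 2, and that with 8.06, 7.97 and 7.93 on array 1.

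The ranges were 0.56 for Pdgfrb and Pdgfd, 0.59 for Pdgfa, 0.75 for Pdgfra, 1.0 for Pdgfb and 1.19 for Pdgfc, and the median range over all genes was 0.51. With 1 array per value these differences have no test. When probesets were averaged instead, the range was 0.47 for Pdgfb and 0.39 for Pdgfc. Single probesets showed the same order in part. Array 2 was the highest for 21 of the 33 Pdgfra probesets and the lowest for 0 of them, where array 2 was the highest for 35.1% of all probesets. Array 3 was the lowest for 9 of 10 Pdgfd probesets and 20 of 29 Pdgfrb probesets, compared with 33.6% of all probesets. The probesets of Pdgfc did not follow the order of the gene's median, since array 1 was the highest for 7 of 16 and array 3 for 4 (25%, against 27.8% of all probesets). For Pdgfb array 3 was the highest for 7 of 16.

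**Figure D3:**
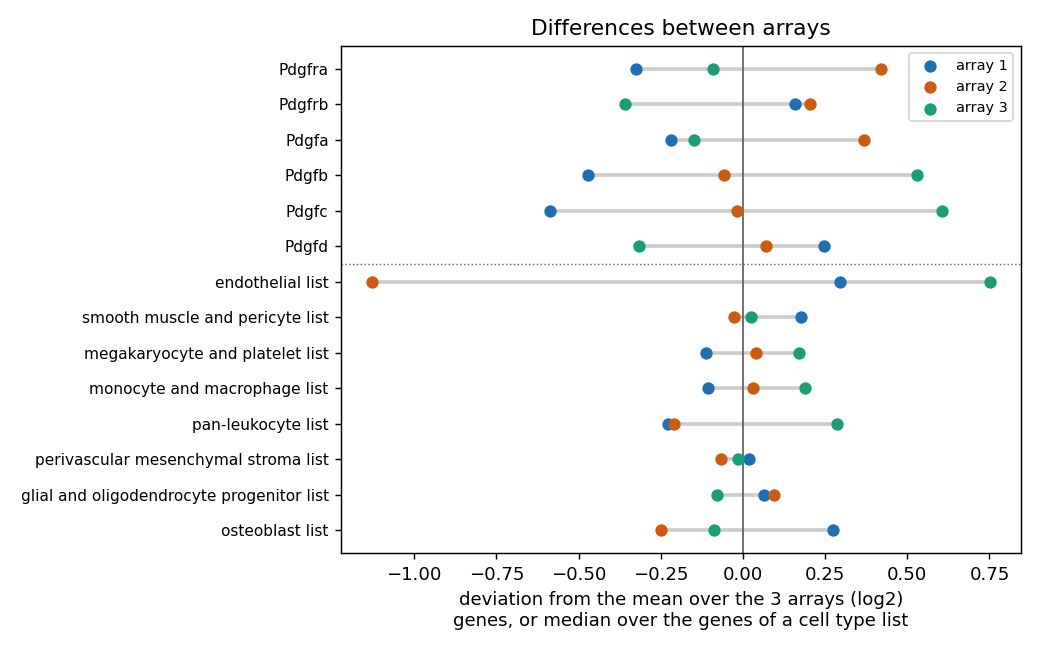
Deviation of each PDGF gene from its mean over the 3 arrays (log2, horizontal axis; upper 6 lines) and the median deviation of each of 8 cell type lists (lower lines), with 1 coloured point per array. Pdgfra and Pdgfa are highest on array 2, where several cell type lists are lowest, including the endothelial (-1.13) and osteoblast (-0.25) lists.

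Markers of mesenchymal stroma were above background in the same RNA, and so were several pericyte and endothelial genes. The counts below stand beside the 50.6% of all genes that were called. Of 13 genes of perivascular mesenchymal stroma 11 were called, among them the leptin receptor gene Lepr (11.38 ± 0.12, SD, n = 3) and the chemokine gene Cxcl12 (11.75 ± 0.14), and the list's median deviated by 0.02, -0.07 and -0.02 on arrays 1, 2 and 3. Nes, whose promoter drives the reporter, was not called, with 5.97, 5.21 and 5.56 on arrays 1, 2 and 3. Of 13 smooth muscle and pericyte genes 9 were called, including the pericyte marker Rgs5 (8.39, 8.25 and 6.37), the potassium channel subunit gene Abcc9 (8.36, 7.10 and 9.30) and the myosin kinase gene Mylk (8.42 ± 0.05). Rgs5 was lowest on array 3, as were Pdgfrb and Pdgfd. In its list 6 of the 13 genes, Abcc9 among them, were lowest on array 2 instead. The median deviation of the list was 0.18, -0.03 and 0.02 on arrays 1, 2 and 3. In the osteoblast list 9 of 10 were called, and in the list of glial and oligodendrocyte progenitor genes 5 of 8 (62.5%, near the share of all genes), with Sox10 at 6.54 ± 0.13.

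Endothelial genes, a known source of Pdgfb, were called in 13 of 17 cases, and 16 of the 17 were lowest on array 2. Their median was 7.68, 5.98 and 7.84 on arrays 1, 2 and 3. VE-cadherin (Cdh5) had 9.14, 6.05 and 9.58, and Pecam1 had 8.92, 6.73 and 8.46. Pdgfra and Pdgfa were highest on array 2, as were 34.3% of all genes. Array 2 was the lowest for 7 and the highest for 2 of the 10 osteoblast genes. Among the 13 genes of perivascular mesenchymal stroma it was the lowest for 7 and the highest for 3. In pooled RNA of this kind, fewer cells of a type and less RNA per cell cannot be told apart. Platelet and leukocyte markers were mostly near background. Of 7 megakaryocyte and platelet genes 2 were called, Gp9 (6.26 ± 0.17) and Treml1 (6.13 ± 0.13). The platelet chemokine gene Pf4 (5.40 ± 0.42) and Itga2b (5.73 ± 0.19) were not. Ppbp, with the largest range of this list, had 7.12, 4.93 and 6.52 on arrays 1, 2 and 3. It lay above the threshold on 2 arrays and was not called (adjusted p = 0.142, limma). Of 12 pan-leukocyte genes 4 were called and of 13 monocyte and macrophage genes 3, while Ptprc, the gene of CD45, stood at 4.68 ± 0.40 and the macrophage receptor gene Csf1r at 4.88 ± 0.39, both not called. Among the called macrophage genes, Mrc1 had 8.39, 4.44 and 9.15 on arrays 1, 2 and 3, the largest range of any gene in the cell type lists, and Lyz2 had 5.93, 6.72 and 8.03. Mrc1 was lowest on array 2, as the endothelial genes were, and Lyz2 was not. The called leukocyte genes with the largest margin were Arhgdib (9.45 ± 0.26) and Lcp2 (8.47 ± 0.51). The part of these cell types in the PDGF values was not tested.

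Of 63 measured genes of the wider PDGF pathway, 53 (84.1%) lay above background, against 50.6% of all genes, with a median margin of 1.97. Many of them serve other receptors as well, so their signal is not specific to PDGF. In the list of ligand processing and matrix binding 7 of 11 were called, 4 at the 99th percentile and 4 against other-tissue genes. At the 90th percentile, where 63.5% of all genes were called, 10 of the 11 were. Sparc, a matrix protein that binds PDGF-B, stood at 12.30 ± 0.10 (SD, n = 3), the co-receptor gene Nrp1 at 9.80 ± 0.14, Lrp1, whose protein associates with the beta receptor, at 8.69 ± 0.28, and the convertase gene Pcsk7 at 6.23 ± 0.11. The genes listed here for proteases that activate the latent PDGF-C and PDGF-D ligands, Plat, Plau and St14, were not called. Plat, whose product tissue plasminogen activator cleaves PDGF-C, had 6.05, 5.92 and 5.32 on arrays 1, 2 and 3 (adjusted p = 0.346, limma). Plau, the gene of urokinase, which cleaves PDGF-D, had 5.49, 5.83 and 6.72, above the threshold on all 3 arrays (adjusted p = 0.0927, limma). The matriptase gene St14 (5.36 ± 0.24) and the convertase gene Pcsk6 (5.59 ± 0.15) were also not called. The convertase genes Furin (7.14 ± 0.23) and Pcsk5 (6.64 ± 0.39) were called.

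Among the receptors most closely related to the PDGF receptors, Kit was called, with 5.92, 7.01 and 6.69 on arrays 1, 2 and 3. Its call was lost at the 99th percentile, against other-tissue genes and with no minimum of probesets. Csf1r, Flt3 (4.98 ± 0.27, SD, n = 3) and the receptor-like gene Pdgfrl (5.73 ± 0.24) were not. Of 26 adaptor and effector genes 23 were called, 14 at the 99th percentile and 13 against other-tissue genes, with the phosphatidylinositol 3-kinase subunit gene Pik3r1 at 9.33 ± 0.26, the docking protein gene Gab1 at 8.73 ± 0.53, Stat3 at 8.60 ± 0.23 and the adaptor gene Nck2, with the smallest called margin, at 6.24 ± 0.29. The kinase genes Map2k2 (5.90 ± 0.26), Pik3cb (6.21, 4.66 and 5.64 on arrays 1, 2 and 3) and Fyn (6.30, 5.31 and 7.36) were not called. All 13 measured negative regulators were called, 8 of them at the 99th percentile and 5 against other-tissue genes. They included the phosphatase gene Ptpn12 (9.44 ± 0.32), the ubiquitin ligase gene Cblb (9.30 ± 0.17), Spry2 (9.47, 8.24 and 7.99), an inhibitor of receptor kinase signalling, and Ptprj (6.97 ± 0.28), whose product dephosphorylates the beta receptor. Ptprb, which is also in the endothelial list, had 8.39, 5.50 and 8.02 on arrays 1, 2 and 3, under the threshold on array 2. Without array 1, 12 of the 13 were called.

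Transcripts first described as induced by PDGF or serum in mouse fibroblasts were called in 9 of 9 cases. The matricellular gene Ccn1 had 10.59, 9.55 and 10.11 on arrays 1, 2 and 3, Fos 9.29, 8.43 and 9.81, the chemokine gene Ccl2 9.45, 8.02 and 9.54, and Srf, with the smallest margin, 7.22, 6.43 and 6.77. These 4 genes were lowest on array 2, where Pdgfra and Pdgfa were highest, and 6 of the 9 genes of the list were lowest there. Such transcripts also respond to cell isolation, whose part in these values was not tested.

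**Figure D4:**
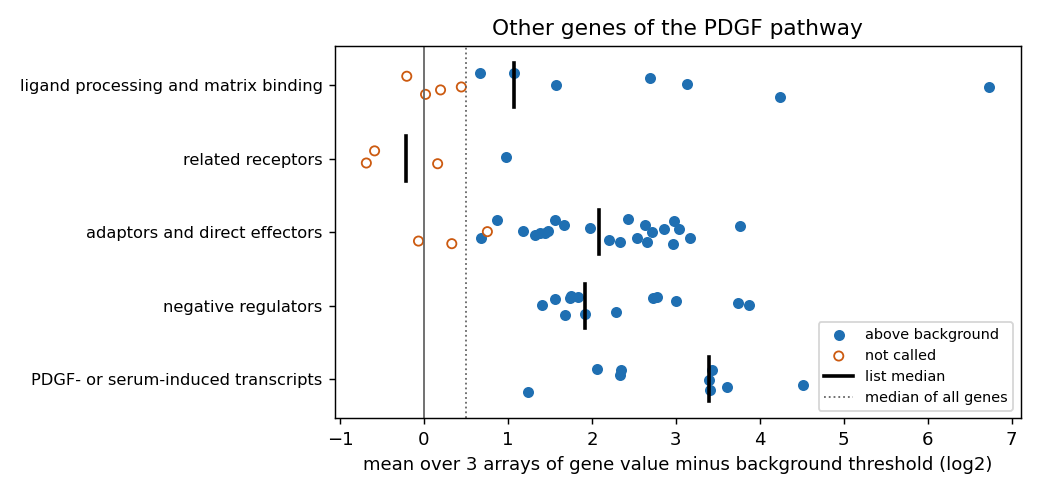
Mean margin over the background threshold (log2, n = 3 arrays, horizontal axis) of the other genes of the PDGF pathway, 1 point per gene and 1 line per list, filled where limma called the gene and open where it did not. All 13 negative regulators and 9 of 9 induced transcripts are filled, while 3 of 4 related receptors are open, and the black bars are list medians.

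Genes whose pattern over the 3 arrays was nearest to that of each member were sought among the 9544 called genes outside the family, by the Euclidean distance between the 3 deviations. They were Psmb7, Mfge8 and Selenoo for Pdgfra (distances 0.02), Slx1b, Fahd1 and Drap1 for Pdgfrb (0.01 to 0.02), and Tmem59l, Fkbp7 and Fibin for Pdgfa (0.01 to 0.02). For Pdgfb they were Abraxas2, Pla2g15 and Tbc1d23 (0.02 to 0.03), for Pdgfc Plekha3, Slfn10-ps and Kansl1 (0.02 to 0.04), and for Pdgfd Dhx15, St6galnac6 and Trp53i13 (0.005 to 0.013). A pattern over 3 arrays singles out few genes. Within a distance of 0.2 lay 420 called genes for Pdgfra, 476 for Pdgfrb, 582 for Pdgfa, 150 for Pdgfb, 80 for Pdgfc and 638 for Pdgfd. Within the family the closest pairs were Pdgfra and Pdgfa (0.13), Pdgfb and Pdgfc (0.14), and Pdgfrb and Pdgfd (0.17). The distance was 0.60 between the receptor genes and reached 1.25 between Pdgfc and Pdgfd. Pdgfb and Pdgfc were not called, so the genes and distances given for them rest on medians near the background threshold. Their ranges over the arrays fell to 0.47 and 0.39 when probesets were averaged instead.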

How the data were processed

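The 3 arrays held 1256831 probesets each. The deposited values were log2 expression values, which the authors obtained by RMA in Affymetrix Expression Console 1.1, per the submitters' processing notes. Settings and build: not given in the sources used here. Symbols came from the platform annotation, updated through RefSeq synonyms (GRCm38.p6). Genes needed at least 4 probesets with a single symbol. Margins over the array's background threshold were fitted with an intercept-only model in limma 3.58.1 (R 4.3.3), one-sided, with Benjamini-Hochberg adjustment over all genes, or over all probesets with 1 symbol. The test was checked on simulated data.

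The members and the gene lists were chosen with earlier results of these data known. All members were named. In each pathway list the 3 called genes with the largest margin, the called gene with the smallest margin and the genes not called were named. Ptprb was named as well because it is also in the endothelial list, and Furin and Pcsk5 as the other convertase genes of their list. In cell type lists defining markers and some of the genes with a large margin or range were named, and no gene of the osteoblast list was. Some listed pathway genes were not analysed here. Precision is limited by having 3 arrays, and scan batches were not examined. Alternatives changed the gene summary, the background percentile and genes, the minimum of probesets, the normalisation and the set of arrays.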

Additional observations from a re-analysis of the deposited data

How the results depend on the processing

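The calls of Pdgfra, Pdgfrb and Pdgfd held under all alternatives tried, that of Pdgfa under all except the 99th percentile and other-tissue backgrounds, and the 4 called members stayed 4 with 1 array left out. Leaving out 1 array gave margins of 3.61 to 3.88 for Pdgfra, 4.09 to 4.50 for Pdgfrb, 1.27 to 1.55 for Pdgfa, 0.07 to 0.42 for Pdgfb, -0.38 to 0.06 for Pdgfc and 2.83 to 3.27 for Pdgfd. At the 99th percentile Pdgfa had a margin of 0.19 and Pdgfb -0.95. Against other-tissue genes these were -0.11 and -1.24. At the 90th percentile Pdgfb had 0.71 and was called, and Pdgfc had 0.30 and was not. With no minimum of probesets Pdgfb had -0.21. Pdgfc also turned above 0 with the mean over probesets (0.0834), with at least 8 probesets (0.0208) and without array 1 (0.0649), and was not called in any of these. Of the 63 pathway genes 33 were called at the 99th percentile, 29 against other-tissue genes and 51 to 54 without 1 array. At the 99th percentile of probesets 15 of the 118 member probesets were called, namely 7 of Pdgfra, 7 of Pdgfrb, 1 of Pdgfa and 0 of Pdgfb, Pdgfc and Pdgfd, and limma at the 95th percentile called 64. At the 90th percentile 7 Pdgfa, 3 Pdgfb and 5 Pdgfc probesets were called. Without 1 array 4 to 5 Pdgfd and 0 Pdgfc probesets were called. The Pdgfd count was 4 without array 1. The share of all probesets called was taken only at the 95th percentile with all 3 arrays (18.2%). The probeset counts at the other settings therefore have no reference share. The range over the arrays became 0.47 for Pdgfb and 0.39 for Pdgfc with the mean over probesets, and 0.24 for Pdgfc over its called probesets. The cause of these differences was not tested. Leaving out array 2 made limma use a common variance for all genes, so p-values there are not comparable with the others. No paired analysis was possible because there is 1 group. Signal near the background threshold, as for Pdgfb and Pdgfc, limits what 3 arrays can show.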

Other observations

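Exactly equal values on a pair of arrays occurred in 3 of the 118 member probesets, 2 of Pdgfb and 1 of Pdgfc, and in 4.33% of all probesets with 1 symbol. None of the 318760 probesets with 1 symbol, the members' included, was among the 20744 listed at exactly 0 on every array.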
